A study of Mus musculus with 59 samples.

Results

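Genes of 9 enzymes that take nitrogen or glutamate from glutamine were followed in embryoid bodies (EBs) exposed to mouse serum: Gls2, a glutaminase of mitochondria, Ppat, Cad, Pfas, Gmps, Ctps and Ctps2, which use the amide nitrogen of glutamine to build nucleotides, and Gfpt1 and Gfpt2, which use it to build amino sugars. They were chosen by symbol, and all 9 were among the 19613 genes of the deposited table. The indicator cells were EBs containing spinal motor neurons, derived from the mouse embryonic stem cell line HBG3, in which the motor neuron gene HB9 drives a green fluorescent protein. EBs received serum for 24 h either from pre-symptomatic male mice hemizygous for mutant human SOD1, a model of amyotrophic lateral sclerosis (carrier, 29 arrays), or from littermates without the transgene (non-carrier, 30 arrays), all F1 progeny of C57BL/6 and SJL. The labels give 9 weeks for 53 arrays and 10 weeks for the remaining arrays. One stem cell line was used throughout, the EBs hold other cells beside motor neurons, and all cultures were kept in medium with added L-glutamine, so no array shows the cells without it.

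Glutamine carries a second nitrogen, its amide, which cells hand to growing molecules. Glutaminase releases that nitrogen as ammonia and leaves glutamate, which feeds the mitochondria and, in neurons, the transmitter pool. The remaining 8 enzymes each remove the amide from glutamine and fix it onto a substrate: PPAT opens the purine pathway, PFAS works further along it and GMPS closes the branch to GMP, CAD opens the pyrimidine pathway and CTP synthase ends it, and GFPT commits fructose 6-phosphate to UDP-N-acetylglucosamine, the donor for O-GlcNAc and for glycan chains. Dividing cells need the nucleotide enzymes most, while neurons, which have left the cell cycle, rely more on salvage of bases.

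Array values were log2 intensities of a whole gene, averaged over its exons, and a level can be compared between arrays but not between genes. The 59 arrays fell into 9 runs, read from shared names or number ranges in their titles: motorneuron, HB9MNs, A to F and a ten-week run. Run C holds 11 arrays, more than the groups in which the assay was run, and so more than 1 batch of EBs. Median intensity per array lay between 151 and 183, and no array was a copy of another. Motor neuron markers were present in both sera, and of 6 measured only Slc5a7, the choline transporter, passed the test, at 0.15 higher on the log2 scale with carrier serum (adjusted p = 0.0410, limma). The difference was positive for 3 of the 6 and negative for 3, the lowest being Lhx3 at -0.09 (adjusted p = 0.105). In such whole-EB samples, fewer cells of a type and less RNA per cell cannot be told apart. The study describes the sera as samples of separate mice, but the labels do not name the mouse of each array. Arrays of a run are taken to share a batch of EBs, except in run C.

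None of the 9 enzymes passed the test between sera. With the run as a block, limma called 0 of 9 higher and 0 of 9 lower at an adjusted p of 0.05, where it called 0.683% of all genes higher and 1.65% lower. At an unadjusted p of 0.05, 3 of 9 were higher (Ppat, Ctps2 and Gfpt1) and 0 of 9 lower, beside 12% and 8.68% of all genes. The median difference of the 9 was 0.03 on the log2 scale, against 0.02 for all genes. Over the 9 intervals at 95%, the highest bound was that of Ppat, 10.9% higher with carrier serum, and the lowest that of Ctps, at -6.28%.

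**Figure D1:**
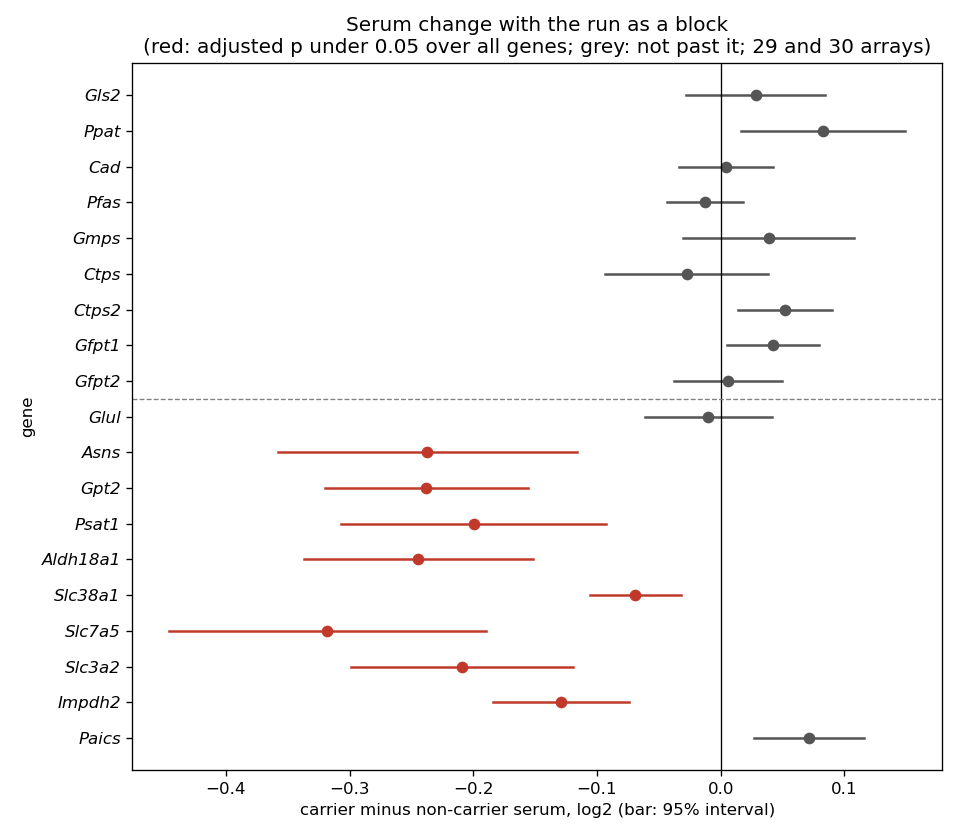
Carrier minus non-carrier difference on the log2 scale (horizontal axis), with the run as a block, for the 9 enzymes above the dashed line and for related genes below it; points are estimates, bars are 95% intervals, and red marks an adjusted p under 0.05. The 9 enzymes lie between -0.03 and 0.08, whereas Slc7a5 lies at -0.32.

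Gls2, the glutaminase first known from liver, had log2 levels of 7.71 at the lowest, 8.22 at the median and 8.55 at the highest with carrier serum, and of 7.56, 8.17 and 8.67 with non-carrier serum. The ranges overlapped almost wholly. Its difference was 0.03 ± 0.03 (SE; adjusted p = 0.556, limma), higher in 7 of 9 runs. In HB9MNs both carrier arrays lay below both non-carrier arrays, as for 31.7% of all genes there. Glul, which makes glutamine from glutamate and ammonia, differed by -0.01 (adjusted p = 0.840), and did not pass the test.

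Ppat, whose product sets the first committed step of purine synthesis, showed the largest difference of the 9. Its log2 level ran from 7.20 over a median of 7.69 to 8.23 with carrier serum, and from 7.20 over 7.57 to 8.05 with non-carrier serum. The ranges overlapped, although the carrier median was higher. The difference was 0.08 ± 0.03 (SE; 95% interval 0.02 to 0.15), or 5.90% higher, with an adjusted p of 0.153 in limma. With Olig2, Mnx1, Isl1 and Lhx3, the 4 motor neuron genes on which the study based its batch correction, fitted beside the run, it was 0.005 (adjusted p = 0.929), and with these genes in place of the run 0.03 (adjusted p = 0.781). Its run mean was higher with carrier serum in 8 of 9 runs, a tally that 6.87% of all genes reached or passed. In runs B and HB9MNs every carrier array lay above every non-carrier array, as for 5.27% and 17.2% of all genes there, and in run F every carrier array lay below, as for 13.1% of all genes.

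Pfas, the amidotransferase of the middle of the purine pathway, ranged from 8.03 to 8.52 with carrier serum (median 8.42) and from 8.06 to 8.60 with non-carrier serum (median 8.41). Its serum difference was -0.013 ± 0.015 (SE; adjusted p = 0.636, limma), the tightest estimate of the 9. Gmps, which turns XMP into GMP, ranged from 9.58 to 10.47 (median 9.89) and from 9.60 to 10.25 (median 9.88). Its difference was 0.04 ± 0.03 (SE; adjusted p = 0.512). Groups of both genes overlapped, and run F was the exception for Gmps, with all carrier arrays below all non-carrier arrays, as for 13.1% of all genes. With the 4 motor neuron genes beside the run, Gmps differed by -0.07 (adjusted p = 0.0583, limma).

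Cad encodes a single protein with the first 3 activities of pyrimidine synthesis. Its levels lay between 7.51 and 7.95 with carrier serum (median 7.86) and between 7.53 and 7.97 with non-carrier serum (median 7.84). These ranges coincided, and the difference was 0.004 ± 0.019 (SE; adjusted p = 0.915, limma), with 5 of 9 runs higher.

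The pair of CTP synthase genes, which convert UTP to CTP at the end of that pathway, went apart. Ctps ranged from 8.26 to 9.03 with carrier serum (median 8.59) and from 8.15 to 9.04 with non-carrier serum (median 8.64). Ctps2 ranged from 8.66 to 9.31 (median 8.96) and from 8.62 to 9.13 (median 8.92). Within each gene the sera overlapped. The difference of Ctps was -0.03 ± 0.03 (SE; adjusted p = 0.635, limma), with 2 of 9 runs higher. That of Ctps2 was 0.05 ± 0.02 (SE; adjusted p = 0.121), or 3.65% higher, and it had the same sign in 9 of 9 runs, as 0.653% of all genes did in that direction. Run means of Ctps2 differed by 0.02 to 0.12, and only in run A did its sera not overlap, with carrier above, as for 8.61% of all genes in that run. In run F all carrier arrays of Ctps lay below all non-carrier arrays, as for 13.1% of all genes there. With the 4 motor neuron genes beside the run, Ctps differed by -0.12 and passed the test (adjusted p = 0.00585, limma), in a fit that called 31.2% of all genes, and Ctps2 differed by 0.01 (adjusted p = 0.758).

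Ctps minus Ctps2 in the serum difference was -0.08 ± 0.03 (SE; 95% interval -0.14 to -0.02), below 0 in 7 of 9 runs. Its two-sided p from 100000 permutations within runs was 0.00566, and 0.0170 after adjustment over 3 gene pairs, of which 2 are described here. The call rested on several runs: without run C the difference was -0.07 (adjusted p = 0.0965), without run D -0.07 (adjusted p = 0.0771) and without run F -0.07 (adjusted p = 0.0684). The genes lay farthest apart in run D, with -0.06 for Ctps and 0.10 for Ctps2, and in the motorneuron run, with -0.04 and 0.12. They went the other way in run E, with 0.11 for Ctps and 0.02 for Ctps2. In HB9MNs they were nearly equal, with 0.057 and 0.055.

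**Figure D2:**
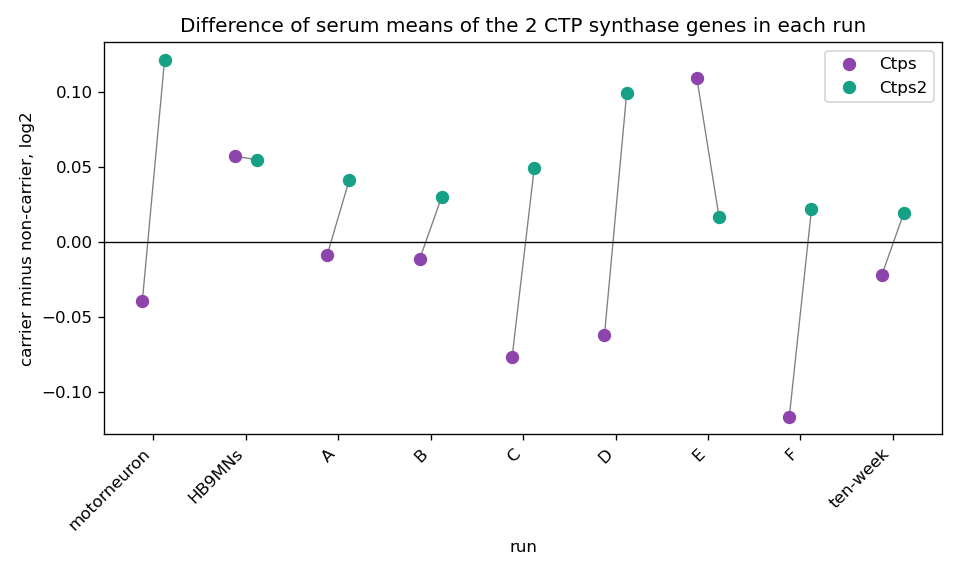
Difference of carrier and non-carrier means on the log2 scale (vertical axis) of Ctps and Ctps2 in each of 9 runs (horizontal axis), with a grey line joining the genes of a run. Ctps2 lies above 0 in 9 of 9 runs and Ctps in 2 of 9.

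The start of each gene was set beside the other, since their serum differences differed. The 250 bases before the RefSeq start (GRCm38.p6) of Ctps, at chr4:120570277-120570526 on the minus strand, and of Ctps2, at chrX:162901310-162901559 on the plus strand, were as follows, 5′ to 3′ and with no capitals since no searched motif was found in them.
Ctps: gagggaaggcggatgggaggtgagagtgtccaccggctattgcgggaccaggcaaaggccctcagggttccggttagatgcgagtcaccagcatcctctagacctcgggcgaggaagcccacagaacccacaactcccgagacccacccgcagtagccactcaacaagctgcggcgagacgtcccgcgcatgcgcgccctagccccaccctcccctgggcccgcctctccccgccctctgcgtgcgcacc
Ctps2: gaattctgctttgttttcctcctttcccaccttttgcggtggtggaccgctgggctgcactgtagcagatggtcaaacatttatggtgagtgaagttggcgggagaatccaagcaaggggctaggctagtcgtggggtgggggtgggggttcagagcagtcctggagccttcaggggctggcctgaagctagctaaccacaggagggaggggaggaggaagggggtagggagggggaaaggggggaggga
The stretch of Ctps was 67.6% G or C with 20 CG dinucleotides, and that of Ctps2 was 59.2% G or C with 4. Both genes have further annotated starts, and the order in G and C depends on the start chosen: the other start of Ctps had 53.6% with 16 CG dinucleotides, and the other 2 of Ctps2 had 64.0% with 5 and 62.4% with 10. All these windows were searched.

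Gfpt1 and Gfpt2 encode the glutamine:fructose-6-phosphate amidotransferases. Gfpt1 ranged from 8.19 to 8.62 with carrier serum (median 8.43) and from 8.19 to 8.62 with non-carrier serum (median 8.40). Gfpt2 ranged from 6.23 to 6.84 (median 6.55) and from 6.33 to 6.71 (median 6.55). Neither gene separated the sera over all arrays. The difference of Gfpt1 was 0.04 ± 0.02 (SE; adjusted p = 0.189, limma). Its variation between runs did not pass the interaction test (adjusted p = 0.559, limma). By run it was 0.15 in run B, 0.14 in the ten-week run, 0.10 in HB9MNs and 0.09 in run C, against -0.08 in the motorneuron run. In the first 3 of these, carrier arrays all lay above non-carrier arrays, as for 5.27%, 9.79% and 17.2% of all genes. The difference of Gfpt2 was 0.01 ± 0.02 (SE; adjusted p = 0.891), and its largest run value was 0.13, in run C. Gfpt1 minus Gfpt2 was 0.04 (95% interval -0.02 to 0.09; adjusted p = 0.252, permutation within runs).

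Whether the serum difference itself varied between runs was tested with an interaction term in limma. It passed for 0 of 9 enzymes, where 0.127% of all genes passed, and 1 of 9, Gfpt1, had an unadjusted p under 0.05 (p = 0.0278, adjusted p = 0.559, limma). In runs E and F alone, the 12 arrays that an earlier comparison with the study's own gene table placed in its test set, the differences of Ppat and Ctps2 were -0.04 and 0.02 with adjusted p of 0.790 and 0.844 in limma. The study picked gene sets holding Cad and Ppat, and Gfpt1 and Gfpt2, on the other 47 arrays, so the direction of these genes there is not independent evidence.

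**Figure D3:**
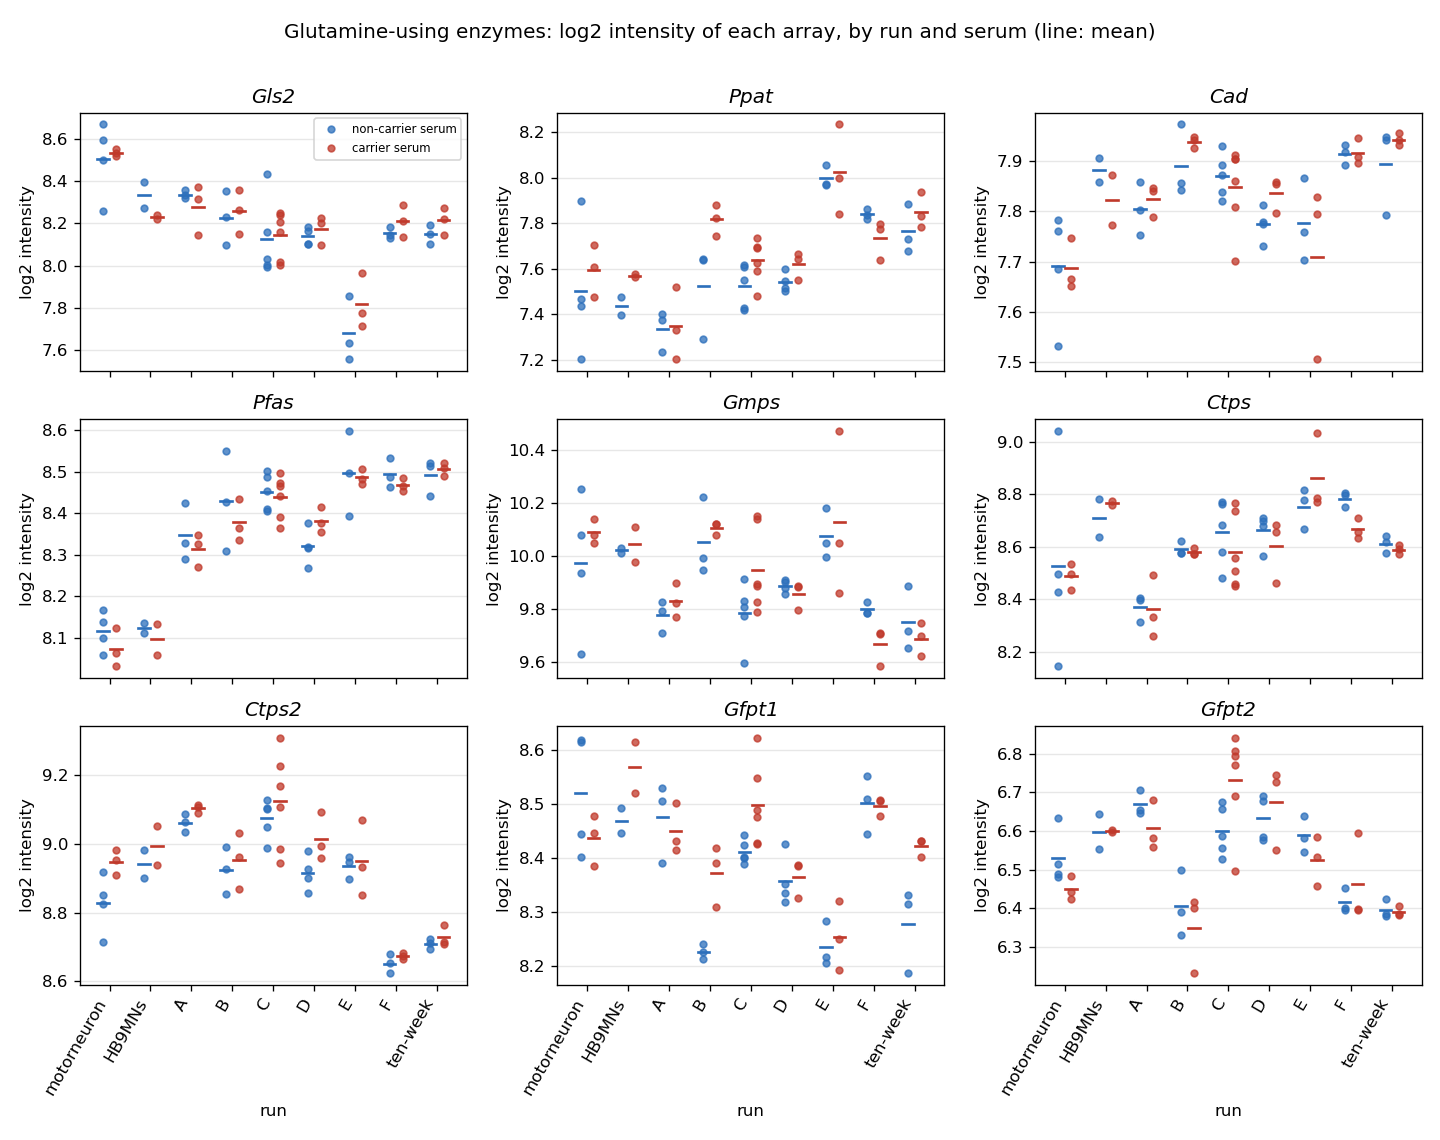
Log2 intensity of each array (vertical axes, 1 panel per gene with its own scale) by run (horizontal axis) and serum, with a line at each mean. The sera overlap in most runs, while whole runs are displaced, such as run E for Gls2, at 7.75 against 8.52 in the motorneuron run.

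Levels of these enzymes differed between runs by more than they did between sera. Run differences passed the limma F test for 9 of 9, as for 94% of all genes. The run accounted for 50.3% (Ctps) to 89.3% (Pfas) of the variance between arrays, with a median over all genes of 62.5%. The span from the lowest to the highest run mean went from 0.23 for Cad, or 1.17-fold, to 0.77 for Gls2, or 1.70-fold.

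Gls2 was highest in the motorneuron run, at 8.52 ± 0.13 (SD, n = 7). It was 8.31 ± 0.08 (n = 6) in run A, 8.28 ± 0.08 (n = 4) in HB9MNs and 8.24 ± 0.11 (n = 6) in run B. It was 8.18 ± 0.06 in run F and 8.18 ± 0.06 in the ten-week run (n = 6 each), 8.15 ± 0.05 (n = 7) in run D, 8.14 ± 0.14 (n = 11) in run C and 7.75 ± 0.15 (n = 6) in run E. Only the ends of this order parted from their neighbours: the motorneuron run exceeded run A by 0.21 (adjusted p = 0.00167, limma) and run C exceeded run E by 0.38 (adjusted p = 6.41e-08), while the 6 steps between had adjusted p from 0.495 to 0.994.

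Ppat ran nearly the other way. It was highest in run E, at 8.01 ± 0.13 (SD, n = 6), then 7.81 ± 0.10 in the ten-week run and 7.79 ± 0.08 in run F (n = 6 each). Its lowest means were 7.50 ± 0.08 (n = 4) in HB9MNs and 7.34 ± 0.12 (n = 6) in run A. Run E exceeded the next run by 0.20 (adjusted p = 0.0219, limma), and no other neighbours in the order differed. Ctps shared both ends of this order, at 8.81 in run E and 8.37 in run A, but none of its neighbouring runs differed (smallest adjusted p = 0.0659).

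Pfas parted the runs into a low and a high block. It was 8.10 ± 0.05 (n = 7) in the motorneuron run and 8.11 ± 0.04 (n = 4) in HB9MNs, and 8.33 or more in each of the other 7 runs, highest in the ten-week run. The step between HB9MNs and run A was 0.22 (adjusted p = 7.04e-06, limma), and the other steps did not pass. Cad had the same lowest and highest runs, 7.69 and 7.92, without a step that passed (smallest adjusted p = 0.222). Gmps was split near the middle, with 10.03 in HB9MNs and 10.02 in the motorneuron run above 9.87 in run D (difference of the last 2, 0.15, adjusted p = 0.0492), and was lowest, at 9.72, in the ten-week run.

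Ctps2 was set low in 2 runs, at 8.66 ± 0.02 in run F and 8.72 ± 0.02 in the ten-week run (SD, n = 6 each), while the other 7 runs lay between 8.88 and 9.10. The step up from the ten-week to the motorneuron run was 0.16 (adjusted p = 3.69e-04, limma). Gfpt1 went from 8.25 in run E to 8.52 in HB9MNs and Gfpt2 from 6.38 in run B to 6.67 in run C, and no neighbouring runs of either differed (smallest adjusted p of 0.0991 and 0.220).

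**Figure D4:**
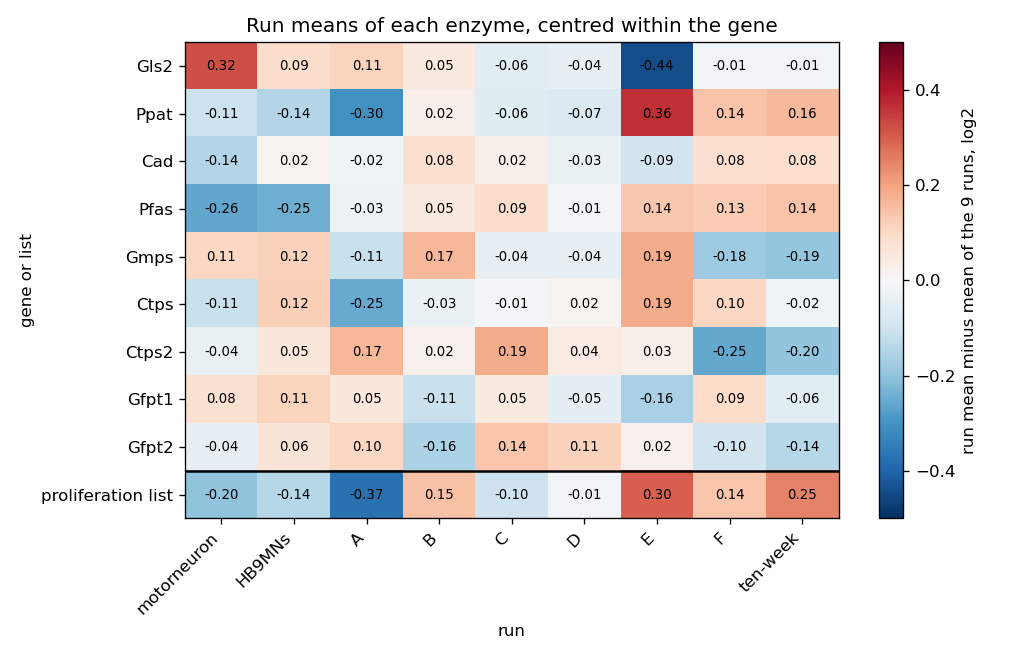
Mean of each run (horizontal axis) minus the mean of the 9 runs for each of the 9 enzymes and, below the line, for the summed level of a list of proliferation genes; colour and printed values are log2 differences. Ppat and the proliferation list share their highest run, E, and their lowest, A.

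These displacements were set beside the summed levels of 8 marker lists over the 9 run means, 72 relations in all. Ppat followed the list of 10 proliferation genes, among them Mki67 and Top2a, with r = 0.94 and rho = 0.95 (exact permutation p of 1.38e-04 and 3.53e-04; adjusted p of 0.00992 and 0.0254), and r was 0.92 without the 2 runs farthest from the median. It was the only one of 72 to pass by r. The summed proliferation level ranged from 12.22 to 13.04 with carrier and from 12.21 to 12.96 with non-carrier serum and 0 of its 10 genes passed the serum test, its summed difference being 0.03. By rho alone, 4 further relations passed: Pfas with the motor neuron progenitor list (rho = 0.90, adjusted p = 0.0292, permutation) and Gls2 with the lists of liver (rho = 0.93, adjusted p = 0.0270), microglia and red blood cells (rho = 0.90 and adjusted p = 0.0292 for each). These did not pass by r: Pfas had r = 0.86 (adjusted p = 0.0686, permutation; r = 0.65 without the 2 farthest runs), and Gls2 had r = 0.88 with liver, 0.86 with microglia and 0.77 with red blood cells (adjusted p of 0.100, 0.129 and 0.215; r of 0.85, 0.62 and 0.67 without 2 runs). The motorneuron run and run E, highest and lowest for Gls2, were also the highest and lowest for the summed astrocyte, microglia, liver, red blood cell and pluripotent lists. These lists stand for cell types other than motor neurons. The part of these lists in the levels of Gls2 was not tested.

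With run and serum means removed, some pairs of enzymes still rose together from array to array and others went opposite ways. Of 36 pairs, 20 passed by r after adjustment, 10 positive and 10 negative, 15 by rho and 13 by both (permutation within runs, 59 arrays). The median r of the 36 pairs was -0.02, and the share of all gene pairs that pass this test was not computed. Batches within run C were not told apart in this step. Ppat and Ctps, an entry to purines and an exit of pyrimidines, had the highest r, 0.74 (rho = 0.55, r = 0.55 without the 2 arrays farthest from the median; adjusted p = 7.2e-05 and 4.32e-04). Gmps and Ctps2 had r = 0.69 (rho = 0.58), Gmps and Ctps r = 0.63 (rho = 0.44), and Ctps and Ctps2 r = 0.53 (rho = 0.42). The lowest was that of Cad and Gmps, -0.80 (rho = -0.75, r = -0.72 without 2 arrays; adjusted p = 7.2e-05 and 1.8e-04), and Gls2 opposed Ctps at -0.67 (rho = -0.61) and Ppat at -0.64 (rho = -0.63). Gfpt1 and Gfpt2 showed no relation (r = -0.001, rho = -0.13, adjusted p = 0.993 and 0.420). With 100000 permutations a p cannot be lower than 1e-05. Values were shuffled across sera within a run although the mean of each serum had been removed, so these p-values can be too low.

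Single arrays show the opposition. The array of run E with the highest Gmps of all, 10.47, had the lowest Cad of all, 7.51, and the highest Ppat, 8.23. In the motorneuron run, 1 non-carrier array had Gmps at 9.63, Ctps at 8.15 and Gls2 at 8.67, whereas another had 10.25, 9.04 and 8.26. Such arrays share more than these genes. The first component of all genes held 20.4% of the variance left within run and serum, and Gls2 and Ctps correlated with the median shift of their array at r = 0.51 and -0.43. Shares of all genes with an r of at least 0.4 in size were 36.5% for Gls2, 32.9% for Gmps, 33.2% for Ctps, 27.3% for Cad and 25.1% for Ppat, but 2.76% for Pfas and 1.99% for Gfpt2. The correlations thus describe arrays that also differ in many other genes, and the part of array quality in them was not tested.

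**Figure D5:**
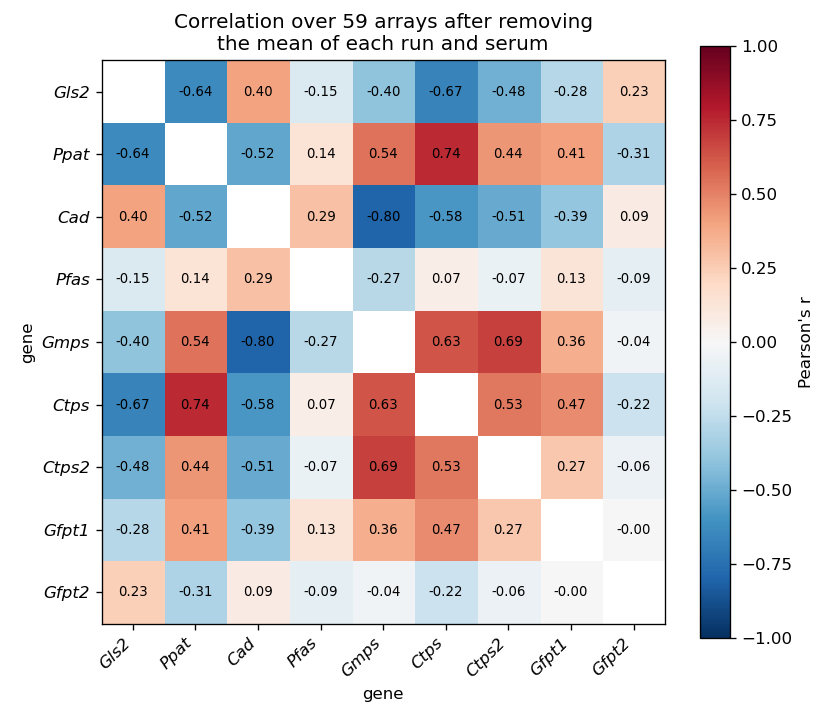
Pearson's r over 59 arrays, after removing the mean of each run and serum, for each pair of the 9 enzymes (both axes); colour and printed value are r. Gmps, Ctps, Ctps2 and Ppat form a positive group, with Gls2 and Cad negative to it, the extremes being 0.74 and -0.80.

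For each enzyme the most similar gene of the table was taken by the same r over 59 arrays. Ppat was nearest to Smc2, a condensin subunit (r = 0.83), Cad to Polrmt, the mitochondrial RNA polymerase (r = 0.88), and Gmps to Asah1, an acid ceramidase (r = 0.94). Ctps was nearest to Gnai3 (r = 0.90), Ctps2 to Mtmr2 (r = 0.82), Gls2 to a keratin-associated protein gene listed as Krtap9.1 (r = 0.90), Pfas to Zgpat (r = 0.68), Gfpt1 to Rdh11 (r = 0.67) and Gfpt2 to Fbxo36 (r = 0.62). None of the 9 nearest genes was a member, and none had passed the serum test (smallest adjusted p = 0.193).

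Ppat has a close neighbour in the genome. In the RefSeq annotation (GRCm38.p6) it lies at chr5:76913249-76951578 on the minus strand, and Paics, whose enzyme carries out a pair of steps of the same pathway, lies at chr5:76951302-76967509 on the plus strand, so that their first 277 bases overlap head to head. Paics was set beside Ppat after its values had been seen. Its log2 level ran from 10.56 to 11.12 with carrier serum (median 10.89) and from 10.64 to 11.05 with non-carrier serum (median 10.82), overlapping ranges. Its difference was 0.07 ± 0.02 (SE; adjusted p = 0.0650, limma), higher in 8 of 9 runs, as was that of Ppat. Within run and serum the pair had r = 0.68 and rho = 0.51 over 59 arrays (permutation p of 1e-05 and 1.7e-04, r = 0.52 without the 2 farthest arrays). The shuffling was that used between enzymes, so these p-values can also be too low. Paics ranked 142 among 19612 other genes for its r with Ppat, so 0.724% of genes were as close or closer. Where the array's probes lie in the shared stretch was not checked.

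The starts of the enzymes were searched for 2 short motifs on both strands, in windows from 250 bases before to 50 after each RefSeq start. One was the E-box CACGTG, bound by MYC and other factors of growing cells, which reads the same on both strands. The other was TGATGNAA, the core of the element bound by ATF4 with C/EBP partners. Windows were listed for 7 of 9 enzymes, all but Gls2 and Pfas. Neither motif occurred in any of the 7, beside 8.09% and 4.51% of 27025 genes with a window. In Paics the E-box lay 203 bases before the start, inside the Ppat gene, shown here with the motif in capitals (chr5:76951087-76951116, plus strand), and in Asns, which also uses the amide, the second motif lay 23 bases before the start (chr6:7693213-7693244, minus strand).
Paics: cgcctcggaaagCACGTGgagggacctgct
Asns: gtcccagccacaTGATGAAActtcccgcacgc
No match says only that these letters are not in the windows.

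Among genes that bring in and pass on glutamine nitrogen, several fell with carrier serum. Of 17 genes of glutamate and glutamine exchange, 0 rose and 6 fell at an adjusted p of 0.05 in limma. Of all genes, 0.683% rose and 1.65% fell. The median difference of the 17 was -0.07, against 0.02 for all genes. Slc7a5 and Slc3a2, the chains of the transporter that trades intracellular glutamine for leucine and other large amino acids, fell by 0.32 and 0.21 on the log2 scale (adjusted p = 0.00295 and 0.00586). Slc38a1, which imports glutamine into neurons, fell by 0.07 (adjusted p = 0.0302). Gpt2 and Psat1, transaminases that take nitrogen from or give it to glutamate, fell by 0.24 and 0.20 (adjusted p = 7.36e-04 and 0.0311), and Aldh18a1, which turns glutamate into a proline precursor, fell by 0.24 (adjusted p = 0.00221). For Slc7a5, Slc3a2, Psat1 and Aldh18a1 the difference varied between runs (adjusted p under 0.05, limma interaction test), so their values average over unlike runs. Levels still overlapped, as for Slc7a5, from 9.76 to 11.51 with carrier serum (median 10.26) and from 9.82 to 11.95 with non-carrier serum (median 10.75). The direction of these genes in these arrays was known when the list was drawn up.

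Among 5 measured other users of the glutamine amide, Asns, which makes asparagine, fell by 0.24 (adjusted p = 0.0223, limma), and 0 rose past the threshold. The fall of Asns varied between runs (adjusted p = 0.0413, limma interaction test). Beside this list and those below, 0.683% of all genes rose and 1.65% fell past the threshold. The difference was positive for 3 of the 5 and negative for 2, the highest being Gatc at 0.08 (adjusted p = 0.0925). Of 15 purine genes, the 3 members included, 0 rose and 1 fell: Impdh2, which supplies the XMP that GMPS amidates, was lower by 0.13 in the fit (adjusted p = 0.00559) and in 9 of 9 runs. Atic, the last enzyme of the route to IMP, had a difference of -0.08 (adjusted p = 0.0506). At an unadjusted p under 0.05, 4 of the 15 were higher and 3 lower (limma), beside 12% and 8.68% of all genes. Of 13 pyrimidine genes 0 passed the test in limma, with an unadjusted p under 0.05 for 1 higher (Ctps2) and 1 lower (Uck1, -0.09). Of 12 genes that make or use UDP-N-acetylglucosamine 0 passed, with an unadjusted p under 0.05 for 2 higher and 1 lower. The extremes were Amdhd2 at 0.06 and Uap1l1 at -0.06 (adjusted p = 0.184 and 0.256). The unadjusted counts of the pyrimidine and UDP-N-acetylglucosamine lists stand beside the same 12% and 8.68% of all genes. Without runs E and F, which leaves 47 arrays, Gpt2 and Impdh2 were the only ones of the 8 genes called lower in these lists to pass (adjusted p = 0.0415 and 0.0462, limma), and all 8 kept a negative difference, that of Slc7a5 being -0.28 (adjusted p = 0.0751). The study picked its down-regulated gene sets on those 47 arrays, so the direction there is not independent evidence. In runs E and F alone all 8 were also negative. Gpt2 and Aldh18a1 passed there, at -0.34 and -0.39 (adjusted p = 0.0458 and 0.0494, limma). Slc7a5 was -0.45 (adjusted p = 0.115) and Impdh2 -0.20 (adjusted p = 0.371). The 8 were called with these arrays included. Of these 8 genes 6 had a promoter window, and TGATGNAA occurred in 1 of the 6, Asns, and CACGTG in 2, Aldh18a1 and Impdh2. Among all genes with a window, 4.51% held TGATGNAA and 8.09% CACGTG.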

How the data were processed

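EBs were profiled on Affymetrix mouse exon arrays. The authors computed the deposited values with RMA in aroma.affymetrix, with all arrays normalised together, took the mean over exons as the gene value (annotation release 33) and removed 3 outlier arrays beforehand. As deposited, the values are linear-scale intensities, and no genome build was stated. Log2 was taken with nothing added and no gene was filtered out. Runs were read from titles. The carrier minus non-carrier difference was fitted in limma (version 3.58.1, R version 4.3.3), taking runs as fixed blocks. Tests were two-sided, and p-values were adjusted after Benjamini and Hochberg over 19613 genes, with a threshold of 0.05. Fits were tested on simulated data. Gene pairs and correlations were tested with 100000 permutations within runs, and run means with exact permutations. Named genes were the 9 enzymes, Glul, called genes and the extremes of each list, and the nearest gene of each enzyme. Atic, Paics and some marker genes were named in addition. Enzymes, lists and tests were chosen with earlier results of these data known. Some items are not reported here. The number of arrays limits the precision. Promoter sequences came from RefSeq tables of GRCm38.p6. Alternatives were other blocks, normalisations and variance models and leaving out runs or arrays.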

Additional observations from a re-analysis of the deposited data

Results flagged for a closer look

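None of the 36 groups of 4 to 6 arrays of 1 enzyme, run and serum held an array that stood apart by Dixon's test, which flags about 1 in 20 groups by chance. Groups of fewer than 4 arrays were not tested, among them the carrier arrays of run E, with the array of highest Gmps. Of the related genes that fell with carrier serum, 5 had a serum difference that varied between runs by limma's interaction test, with an adjusted p of 0.0413 for Asns, 0.0359 for Psat1, 0.00246 for Aldh18a1, 0.00339 for Slc7a5 and 0.0202 for Slc3a2. Of all genes, 0.127% passed this test. Each of the 5 was lower with carrier serum in 7 of 9 runs, or 8 of 9 for Slc7a5.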

How the results depend on the processing

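The count of 0 enzymes called became 1 under quantile normalisation (Ctps2, 0.06, adjusted p = 0.0373), 1 with 4 motor neuron genes beside the run (Ctps, -0.12, adjusted p = 0.00585, in a fit that called 31.2% of all genes) and 1 without the motorneuron run (Gfpt1, 0.06, adjusted p = 0.0494), and stayed 0 under all other alternatives, including leaving out each array in turn (smallest adjusted p = 0.0607, for Ppat). Without the run block, 0 of 19613 genes passed in limma (smallest adjusted p = 0.286). Of 224 differences of single enzymes under alternatives, 202 kept their sign and side of the threshold, 3 passed it and 19 changed sign, none of these past the threshold, and the cause was not tested. With the replicate number as a block within runs, Cad became -0.0013 and 0 enzymes were called. The correlations of deviations of same-numbered arrays ran from -0.135 to 0.327, and whether the numbers pair the arrays was not tested. With arrays centred on their median, Cad was -0.0032 and Gfpt2 -0.0014, and the median of all genes moved from 0.016 to 0.0084. Cad was -0.00094 without run B, -0.0035 without run D and -0.00097 without the ten-week run, and Gfpt2 was -0.0230 without run C. In runs E and F alone Ppat was -0.0379, Cad -0.0323, Gmps -0.0402 and Gfpt2 -0.0088. With quantile normalisation Gfpt2 was -0.0317. The 4 motor neuron genes of the study's batch correction were fitted over both sera, which is not the study's own correction. With them beside the run, Ppat was 0.0047, Ctps2 0.0086, Gls2 0.0714 and Cad 0.0413. Gmps was -0.0726 and Gfpt2 -0.0076 beside the run, and Gmps was -0.0389 and Pfas 0.0079 without it. With array weights Gmps was -0.0044. Leaving out single arrays gave Cad values from -0.0013 to 0.0141 and Gfpt2 values from -0.00046 to 0.0121. Ctps minus Ctps2 was -0.0686 without run C, -0.0685 without run D and -0.0726 without run F, no longer past the threshold.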
